A study of Mus musculus with 12 samples.

Results

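The interaction of Stab1 loss with Stab2 loss is the amount by which removing Stab1 shifts a gene differently when Stab2 is absent than when it is present. It was computed for each gene on the deposited log2 values as (double-deficient minus Stab2KO) minus (Stab1KO minus wild type), and it used all 12 of the 12 arrays in the study. The same quantity is the distance between the measured double-deficient (DKO) level and an additive expectation, the Stab1KO mean plus the Stab2KO mean minus the wild-type (WT) mean. A value of 0 means that both single-loss differences added up on the log2 scale. A value above 0 means that DKO lay higher than that sum. The fit covered 24011 genes.

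The study measured RNA of liver sinusoidal endothelial cells (LSECs) on Affymetrix arrays in 4 genotypes: WT, Stab1KO, Stab2KO and the double knockout of both genes. Each genotype had 3 arrays, and each array carried the RNA of cells pooled from 3 mice. All mice were C57BL/6J and 3 to 4 months old, and cells were captured with beads against CD146, a protein on endothelial cells, directly after liver perfusion. The labels give no further allele or treatment. Any other difference between the mice of the 4 genotypes cannot be told apart from loss of the receptors. Because each replicate is a pool, the p-values below measure the spread between pools and not between mice.

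Stabilin-1 and stabilin-2, encoded by Stab1 and Stab2, are the class H scavenger receptors, large membrane proteins that LSECs use to take up modified lipoproteins, matrix fragments, hyaluronan and other waste from blood. LSECs line the liver's smallest vessels and sit against hepatic stellate cells, which store vitamin A and make matrix, and near Kupffer cells, the resident macrophages. The stabilins share ligands, so a design with both single knockouts and their combination asks whether losing one receptor has the same transcript consequences whether or not the other is present. Additivity is an arithmetic reference here and not a model of how receptors work.

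The targeted genes followed their labels. Stab1 read 12.55, 12.46 and 12.62 in WT and 12.48, 12.52 and 12.59 in Stab2KO, against 5.30, 5.45 and 5.16 in Stab1KO and 5.44, 5.27 and 4.98 in DKO. Stab2 read 12.99, 13.07 and 13.09 in WT and from 12.99 to 13.02 in Stab1KO, against 7.40, 6.76 and 6.26 in Stab2KO and 6.89, 7.60 and 5.46 in DKO. The interaction was -0.06 ± 0.16 (SE) for Stab1 and -0.12 ± 0.62 for Stab2, and neither passed the test (limma adjusted p = 0.918 and 0.963).

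The LSEC label fitted its markers: all 26 genes of the LSEC list were measured, with means over the 12 arrays from 8.81 to 13.80. Stab1 and Stab2 are on that list, so its mean level falls with genotype by construction. DKO replicate 3 stood apart from the other libraries. Its correlation with the other arrays ran from 0.9555 to 0.9682 over all genes, while the lowest correlation among the other 11 arrays was 0.9874. The mean of 15 neutrophil genes lay 4.82 log2 units above its 12-array mean in DKO replicate 3, whereas the lowest DKO pool lay at -0.06 and the other 3 genotypes spanned -0.98 to 0.17. Results below are therefore given with and without DKO replicate 3. In bulk RNA of this kind, fewer cells of a type and less RNA per cell cannot be told apart.

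Few genes passed the test for the interaction. With all 12 arrays, 12 of 24011 genes (0.05%) were called by limma at a Benjamini-Hochberg adjusted p under 0.05. Of these, 8 (0.0333%) lay above the additive expectation in DKO and 4 (0.0167%) lay below it. At an unadjusted p under 0.05 there were 2990 genes (12.5%), and 96 genes had an adjusted p under 0.1. The median SE of a single gene's interaction was 0.17 log2 units. All DKO pools lay on the same side of the expectation in 13815 of the 24011 genes. Pool counts given below for called genes use the same values as the interaction and add no support to it.

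Each of the 12 called genes kept its direction when the difference of differences was taken on unlogged values, as did 98% of all genes. By group means, 4 moved only on loss of both receptors, with both single knockouts within 0.5 of WT. Another 5 changed by 0.5 or more in the same direction in both single knockouts, and DKO lay between WT and their sum or, for Kank1, on the other side of WT. In 1 a single knockout moved and DKO sat near WT, and 2 fell in none of these classes.

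**Figure D1:**
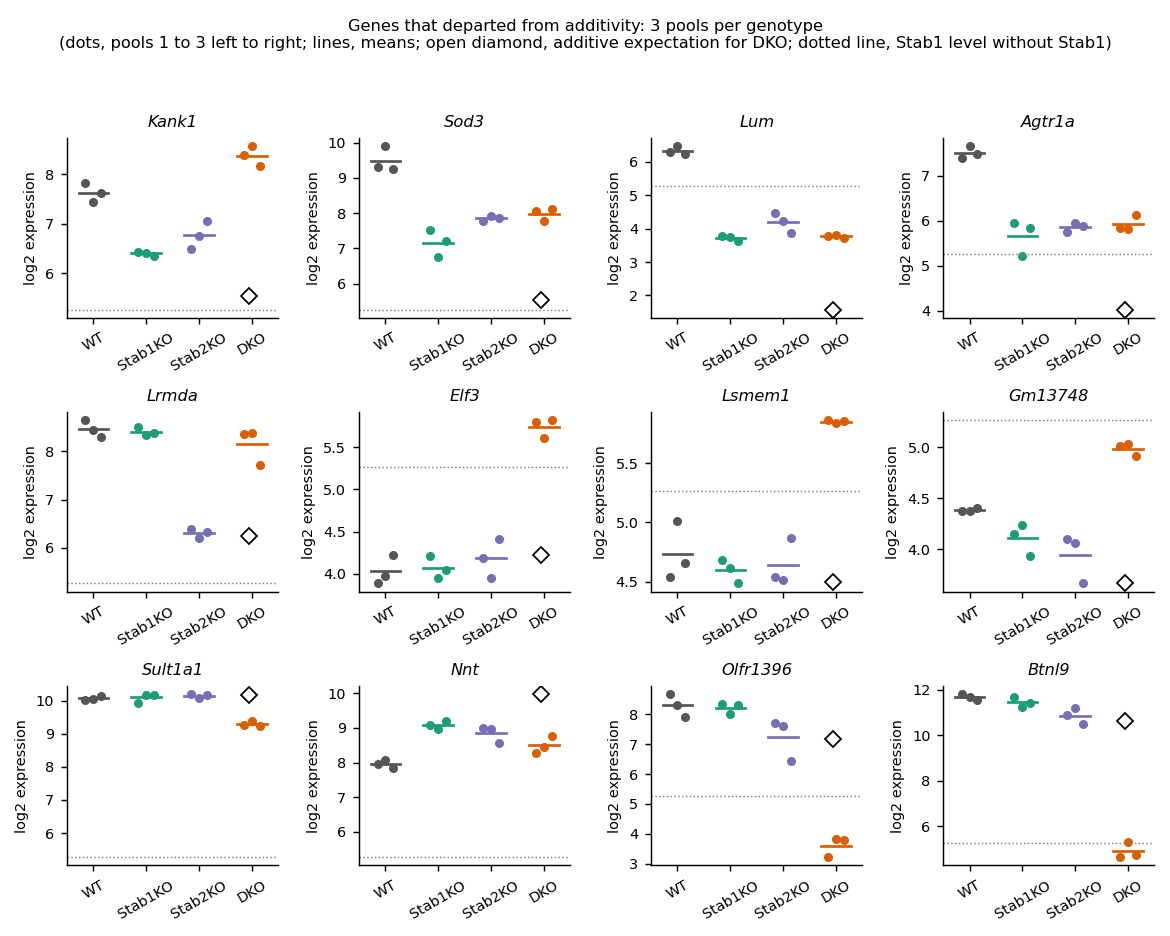
Log2 expression of the 12 genes called for the interaction. Dots are the 3 pools of each genotype, horizontal lines are group means, the open diamond is the additive expectation for DKO and the dotted line is the mean of Stab1 in the 6 arrays lacking it (5.27). Btnl9 and Olfr1396 are lowest in DKO by a wide margin, Kank1 is highest in DKO, and Lum, Agtr1a and Sod3 are high in WT alone with expectations under every measured value. Gm13748 is a placeholder gene model.

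The 2 called genes farthest from their expectation, both below it, are neighbours on chromosome 11. Btnl9, a butyrophilin-like membrane protein related to the B7 family of immune regulators, and Olfr1396, an olfactory receptor gene, have 3 protein-coding genes between them in RefSeq. Their promoter windows are shown because this pair fell together in DKO. Each runs from 250 bases before the annotated start in lower case to 50 bases from it in capitals, 5′ to 3′, in RefSeq build GRCm38.p6. The Btnl9 window is chr11:49187040-49187339 and the Olfr1396 window is chr11:49113708-49114007, both on the minus strand.
Btnl9: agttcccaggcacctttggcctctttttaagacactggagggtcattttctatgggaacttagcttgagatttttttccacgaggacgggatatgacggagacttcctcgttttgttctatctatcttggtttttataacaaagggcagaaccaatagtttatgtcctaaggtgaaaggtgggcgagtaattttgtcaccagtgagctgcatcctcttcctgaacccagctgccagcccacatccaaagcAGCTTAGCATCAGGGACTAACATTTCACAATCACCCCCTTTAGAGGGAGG
Olfr1396: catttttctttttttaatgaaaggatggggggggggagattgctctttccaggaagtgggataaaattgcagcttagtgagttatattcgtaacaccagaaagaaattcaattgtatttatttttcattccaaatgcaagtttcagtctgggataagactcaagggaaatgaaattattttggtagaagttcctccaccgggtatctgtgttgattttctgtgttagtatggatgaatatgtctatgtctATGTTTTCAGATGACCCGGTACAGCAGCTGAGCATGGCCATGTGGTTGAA

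Btnl9 fell in DKO to near the bottom of its range. It read 11.80, 11.70 and 11.52 in WT, 11.68, 11.25 and 11.43 in Stab1KO, 10.88, 11.19 and 10.51 in Stab2KO, and 4.64, 5.33 and 4.72 in DKO. All 3 DKO pools lay far below every other array. The expectation was 10.64 and the interaction -5.74 ± 0.30 (SE, limma adjusted p = 2.74e-05), with 0 of 3 DKO pools above the expectation. Stab1 loss moved Btnl9 by -0.22 with Stab2 present (adjusted p = 1) and by -5.96 without it (adjusted p = 2.46e-07). Without DKO replicate 3 the interaction was -5.65 ± 0.31 (adjusted p = 0.000104).

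Olfr1396 had the same pattern at a lower level and with more spread. It read 8.67, 8.31 and 7.92 in WT, 8.33, 7.99 and 8.32 in Stab1KO, 7.69, 7.60 and 6.43 in Stab2KO, and 3.22, 3.82 and 3.78 in DKO. The DKO pools did not overlap any other group, and Stab2KO lay below both WT and Stab1KO in each pool. The interaction was -3.55 ± 0.45 (limma adjusted p = 0.0253, 0 of 3 DKO pools above the expectation) and -3.64 ± 0.48 without DKO replicate 3 (adjusted p = 0.0185). With values under 5.27 raised to it, the interaction of Olfr1396 was -1.89 and not called (adjusted p = 0.214).

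Sult1a1, a sulfotransferase that conjugates phenols and drugs, fell in DKO alone by a smaller amount. Its values were 10.03, 10.04 and 10.13 in WT, 9.94, 10.17 and 10.17 in Stab1KO, 10.19, 10.08 and 10.17 in Stab2KO, and 9.25, 9.39 and 9.22 in DKO. The 3 groups with at least one stabilin overlapped, and DKO lay below all of them. The interaction was -0.89 ± 0.12 (limma adjusted p = 0.0348, 0 of 3 DKO pools above the expectation), and -0.86 ± 0.13 without DKO replicate 3 (adjusted p = 0.0241).

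Elf3 and Lsmem1 rose in DKO alone. Elf3, a transcription factor of epithelial cells, read 3.89, 3.98 and 4.22 in WT, 4.22, 3.94 and 4.05 in Stab1KO, 4.19, 3.95 and 4.41 in Stab2KO, and 5.81, 5.61 and 5.82 in DKO. Its DKO pools lay above all 9 other arrays, which overlapped among genotypes. The interaction of Elf3 was 1.52 ± 0.19 (limma adjusted p = 0.0253, 3 of 3 DKO pools above the expectation) and 1.48 ± 0.20 without DKO replicate 3 (adjusted p = 0.0185). All 9 arrays outside DKO lay under 5.27, the mean of Stab1 in the 6 arrays lacking it, and with values under that level raised to it the interaction was 0.48 and not called (adjusted p = 0.0696). The bile duct epithelium list, which does not hold Elf3, had mean levels of 0.84 to 1.13 above its 12-array mean in the DKO pools and from -0.76 to 0.17 elsewhere. The part of bile duct transcripts in the Elf3 value was not tested.

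Lsmem1, which encodes a leucine-rich single-pass membrane protein, read 4.54, 5.01 and 4.66 in WT, 4.69, 4.62 and 4.49 in Stab1KO, 4.54, 4.51 and 4.87 in Stab2KO, and 5.86, 5.84 and 5.85 in DKO. The DKO pools were nearly equal and above every other array. The interaction was 1.35 ± 0.18 (limma adjusted p = 0.036, 3 of 3 DKO pools above the expectation) and 1.35 ± 0.20 without DKO replicate 3 (adjusted p = 0.0242). A placeholder gene model, also higher in DKO, had an interaction of 1.32.

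Kank1 reversed its direction between backgrounds. Kank1, an adaptor that links cell adhesions to the actin and microtubule cytoskeleton, read 7.82, 7.43 and 7.63 in WT, 6.44, 6.41 and 6.35 in Stab1KO, 6.48, 6.75 and 7.06 in Stab2KO, and 8.39, 8.56 and 8.17 in DKO. Both single knockouts were below WT in every pool, and DKO was above WT in every pool. Stab1 loss moved it by -1.23 with Stab2 present (limma adjusted p = 0.00502) and by 1.61 without Stab2 (adjusted p = 0.00145). The expectation was 5.53, and the interaction was 2.84 ± 0.21 (adjusted p = 0.000721, 3 of 3 DKO pools above the expectation). Without DKO replicate 3 it was 2.94 ± 0.21 (adjusted p = 0.000394).

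Lrmda was low in Stab2KO and nowhere else. Lrmda, a leucine-rich repeat gene linked to melanocyte differentiation, read 8.64, 8.44 and 8.30 in WT, 8.51, 8.33 and 8.39 in Stab1KO, 6.38, 6.21 and 6.34 in Stab2KO, and 8.35, 8.38 and 7.72 in DKO. The Stab2KO pools did not overlap the others, and DKO overlapped WT. Stab2 loss moved it by -2.15 with Stab1 present (limma adjusted p = 0.000317) and by -0.26 without Stab1 (adjusted p = 0.462). The interaction was 1.89 ± 0.23 (adjusted p = 0.0253, 3 of 3 DKO pools above the expectation), and 2.11 ± 0.14 without DKO replicate 3 (adjusted p = 0.000313). Lrmda and Stab1 are on chromosome 14 with 60 protein-coding genes between them. A part of the genotype carried along with either targeted locus cannot be told apart from loss of the receptor.

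Lum, Agtr1a and Sod3 were high in WT and low in every knockout group, and the DKO mean of each was no lower than its Stab1KO mean. Lum, which encodes the collagen-binding proteoglycan lumican, read 6.29, 6.46 and 6.24 in WT, 3.78, 3.75 and 3.62 in Stab1KO, 4.46, 4.24 and 3.86 in Stab2KO, and 3.79, 3.81 and 3.72 in DKO. DKO overlapped Stab1KO, and all 9 knockout arrays lay under all WT arrays. The expectation of 1.58 is under the lowest value of the whole table, 2.94, so no array could have shown additivity for Lum. The interaction was 2.20 ± 0.19 (limma adjusted p = 0.00158, 3 of 3 DKO pools above the expectation) and 2.23 ± 0.20 without DKO replicate 3 (adjusted p = 0.0023). Lum is on chromosome 10 with 59 protein-coding genes between it and Stab2.

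Agtr1a, the receptor for the vasoconstrictor angiotensin II, read 7.39, 7.65 and 7.47 in WT, 5.94, 5.23 and 5.84 in Stab1KO, 5.74, 5.95 and 5.89 in Stab2KO, and 5.85, 5.81 and 6.13 in DKO. The 3 knockout groups overlapped each other. The interaction was 1.90 ± 0.24 (limma adjusted p = 0.0253, 3 of 3 DKO pools above an expectation of 4.03) and 1.80 ± 0.25 without DKO replicate 3 (adjusted p = 0.0185). Sod3, the secreted superoxide dismutase, read 9.31, 9.89 and 9.25 in WT, 7.53, 6.77 and 7.20 in Stab1KO, 7.78, 7.92 and 7.85 in Stab2KO, and 8.05, 7.78 and 8.11 in DKO. DKO overlapped Stab2KO and lay above Stab1KO. The interaction of Sod3 was 2.45 ± 0.29 (limma adjusted p = 0.0253, 3 of 3 DKO pools above an expectation of 5.53) and 2.38 ± 0.31 without DKO replicate 3 (adjusted p = 0.0179).

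Markers of hepatic stellate cells were, like these 3 genes, highest in WT. The mean of 23 stellate genes, Lum among them, lay 1.00 to 1.52 above its 12-array mean in WT, at -0.65 to -0.37 in Stab1KO, -0.26 to -0.05 in Stab2KO and -0.67 to -0.46 in DKO. DKO lay below Stab2KO in the list mean and for Lum. The means of DKO and Stab2KO were 5.93 and 5.86 for Agtr1a, and 7.98 and 7.85 for Sod3. The difference of DKO from Stab2KO did not pass for Lum, Agtr1a or Sod3 (limma adjusted p = 0.117, 0.877 and 0.793). No value on these arrays is 0 and no detection calls were used here. The part of stellate transcripts in the Lum, Agtr1a and Sod3 values was not tested.

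Nnt ran the other way, lowest in WT. Nnt, the mitochondrial transhydrogenase that makes NADPH, read 7.96, 8.07 and 7.83 in WT, 9.08, 8.96 and 9.21 in Stab1KO, 8.99, 8.97 and 8.58 in Stab2KO, and 8.28, 8.46 and 8.78 in DKO. Every knockout array was above every WT array, and DKO overlapped Stab2KO. The expectation was 9.97 and the interaction -1.47 ± 0.21 (limma adjusted p = 0.0469, 0 of 3 DKO pools above the expectation). Without DKO replicate 3 it was -1.60 ± 0.19 (adjusted p = 0.0117). C57BL/6J mice are known for a deletion within Nnt. All pools carry that strain label, and the Nnt allele of each line is not given in the sources used here.

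How many genes were called turned on single arrays. Leaving out DKO replicate 3 raised the count from 12 to 112 (0.466%), of which 86 (0.358%) were above the expectation and 26 (0.108%) below it. All 12 genes were among them with the same direction. Leaving out Stab2KO replicate 3 gave 56, Stab1KO replicate 1 gave 38, WT replicate 1 gave 19 and DKO replicate 2 gave 17. The count dropped to 8 without Stab2KO replicate 1, and to 5 without WT replicate 3 or Stab1KO replicate 2. It was 4 without WT replicate 2 or DKO replicate 1, and 3 without Stab1KO replicate 3 or Stab2KO replicate 2. Kank1, Lum and Btnl9 were called in each of the 12 leave-one-out fits.

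The other named genes kept their direction throughout but lost their call in part of those fits. Sod3 was called in 8 of the 12, Agtr1a in 6, Lrmda, Elf3 and Olfr1396 in 5 each, Lsmem1 and Sult1a1 in 4 each and Nnt in 2. Elf3, Lrmda and Olfr1396 each lost it without WT 2, WT 3, Stab1KO 2, Stab1KO 3, Stab2KO 1, Stab2KO 2 or DKO 1. Lsmem1 lost it without the same 7 arrays and without DKO 2, and Sult1a1 without the same 7 and without WT 1. Agtr1a lost it without those 7 arrays except Stab1KO 2, and Sod3 without Stab1KO 3, Stab2KO 1, Stab2KO 2 or DKO 1. Nnt kept it only without Stab2KO 3 or DKO 3. The highest adjusted p in these fits was 0.146, for Nnt without Stab1KO replicate 3.

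**Figure D2:**
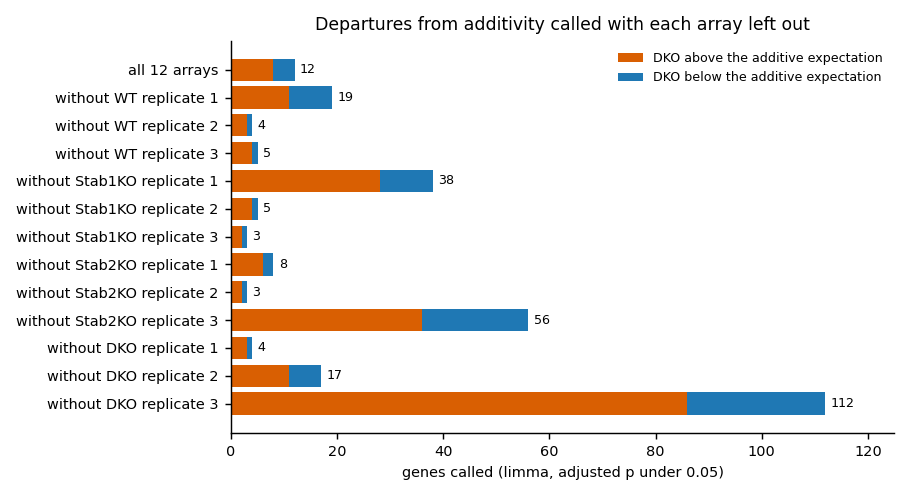
Number of genes called for the interaction (limma, adjusted p under 0.05) with all 12 arrays and with each array left out in turn. Bars are split into genes with DKO above and below the additive expectation. The count runs from 3 to 112 and is highest without DKO replicate 3.

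The 100 genes called only without DKO replicate 3 comprised 78 above and 22 below the expectation. The 10 largest in each direction, placeholder models and small RNAs aside, were looked at by a rule added after the values were seen. In several of them DKO replicates 1 and 2 were high while replicate 3 lay with the other genotypes. Fam71a read 10.40, 10.28 and 8.14 in DKO against 6.89 to 8.71 in the other 9 arrays, with an interaction of 3.64 ± 0.50 without replicate 3 (limma adjusted p = 0.0185) and 2.90 ± 0.78 with it (adjusted p = 0.161). Mx2, an interferon-induced gene that the annotation used here classes as a transcribed pseudogene, read 8.73, 9.37 and 6.13 in DKO against 6.33 to 7.40 elsewhere, with 2.74 ± 0.32 without replicate 3 (adjusted p = 0.0123) and 1.77 ± 0.89 with it (adjusted p = 0.461). Iqcn, Ckap2l, Rpsa, Gdap10 and H3c15 also had their lowest DKO value in replicate 3.

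For Fgfr2, Pdgfc and Bmp5 the estimate hardly depended on that array. Fgfr2, a fibroblast growth factor receptor, had an interaction of 2.81 ± 0.42 with all arrays (limma adjusted p = 0.0536) and 2.68 ± 0.44 without DKO replicate 3 (adjusted p = 0.0376). Pdgfc, a growth factor for mesenchymal cells, read 8.26, 7.36 and 8.01 in DKO against 5.68 to 6.83 in the other arrays. Its interaction was 2.21 ± 0.35 with all arrays (adjusted p = 0.0563) and 2.14 ± 0.38 without that pool (adjusted p = 0.0485). With all 12 arrays, 25 genes had an adjusted p from 0.05 to 0.06.

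Pla2g7 and Msh5 were raised in Stab2KO and not raised in Stab1KO. Pla2g7, the lipoprotein-associated enzyme that degrades platelet-activating factor, read 11.04, 11.01 and 10.95 in Stab2KO against 7.33 to 8.01 in WT and Stab1KO. In DKO it read 7.41, 7.76 and 10.15, so that only replicate 3 approached Stab2KO. The interaction was -3.72 ± 0.25 without replicate 3 (limma adjusted p = 0.000313) and -2.87 ± 0.78 with it (adjusted p = 0.161). Msh5, a meiotic DNA mismatch repair gene, read 9.34, 8.75 and 8.97 in Stab2KO and 6.45, 6.68 and 5.54 in DKO, with 5.83 to 6.57 in WT and Stab1KO. Its interaction was -2.24 ± 0.28 without replicate 3 (adjusted p = 0.0174) and -2.58 ± 0.39 with it (adjusted p = 0.0536).

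Ciapin1, an iron-sulfur cluster assembly factor, shared the pattern of Msh5 at a smaller size, with 8.04, 8.0 and 7.96 in Stab2KO and 6.96 to 7.39 in all other arrays. Its interaction was -1.0 ± 0.11 without DKO replicate 3 (limma adjusted p = 0.0114) and -0.87 ± 0.15 with it (adjusted p = 0.0734). Atox1, Igsf23, Ltc4s, Idh3a, Mgmt and Fndc10 were lower in all 3 DKO pools than in any other array. Of these, Idh3a, a subunit of the mitochondrial isocitrate dehydrogenase, read 7.54, 7.49 and 7.33 in DKO against 8.20 to 8.67 elsewhere, with an interaction of -0.95 ± 0.16 without that pool (adjusted p = 0.0448) and -1.01 ± 0.16 with it (adjusted p = 0.0563).

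Several of these genes lie on chromosome 17, which also carries the major histocompatibility complex. Without DKO replicate 3, 11 of 1132 genes tested there (0.972%) were called, against 0.466% over all genes. This was the highest share of the 20 chromosomes and was singled out after the values were seen, with 0.811% on chromosome 8 and 0.802% on chromosome 3 next. Among them H2-Q7, a nonclassical class I gene, read 7.77, 7.81 and 7.81 in Stab2KO, 8.73 to 9.50 in WT and Stab1KO, and 9.97, 10.05 and 9.35 in DKO. The Stab2KO pools were below all other arrays. Its interaction was 1.76 ± 0.15 without DKO replicate 3 (limma adjusted p = 0.0014) and 1.54 ± 0.23 with it (adjusted p = 0.0536). H2-T23 (1.28, adjusted p = 0.0493) and H2-Q5 (2.00, adjusted p = 0.0484) had calls without that pool too, and Msh5 and Pla2g7 are on the same chromosome. H2-T10, classed as a transcribed pseudogene, went the other way. It read 8.0, 8.55 and 7.62 in Stab2KO, 7.16, 7.48 and 6.82 in DKO and 6.62 to 7.03 in WT and Stab1KO, with an interaction of -1.17 ± 0.31 that was not called (adjusted p = 0.155, and 0.169 without that pool). Class I genes are close copies of each other, so that their signals may be shared between probe sets.

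H2-T22 had the highest interaction of all genes and was not called. It read 9.89, 9.58 and 9.49 in WT, 10.05, 9.97 and 9.83 in Stab1KO, 3.60, 7.50 and 5.95 in Stab2KO, and 9.98, 10.17 and 9.65 in DKO. The Stab2KO pools were the lowest 3 arrays and differed widely from each other. The interaction was 3.95 ± 1.00 (limma adjusted p = 0.147, 3 of 3 DKO pools above the expectation) and 4.09 ± 1.08 without DKO replicate 3 (adjusted p = 0.132). Over the list of 21 class I and class II genes the median interaction was 0.09 (0.10 without that pool), with 13 above 0.

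Across all genes the departures were small and lopsided. The median interaction was -0.04, and the 5th and 95th percentiles were -0.46 and 0.66. Of the 24011 genes, 653 had an interaction above 1 and 45 below -1. These numbers were 419 and 53 without DKO replicate 3. Of the 653 genes, 319 were also above 1 without that pool, and in 329 DKO replicate 3 exceeded both other DKO pools by more than 1. In 416 of the 653 both single knockouts lay within 0.5 of WT, and in 84 both were lower by at least 0.5.

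**Figure D3:**
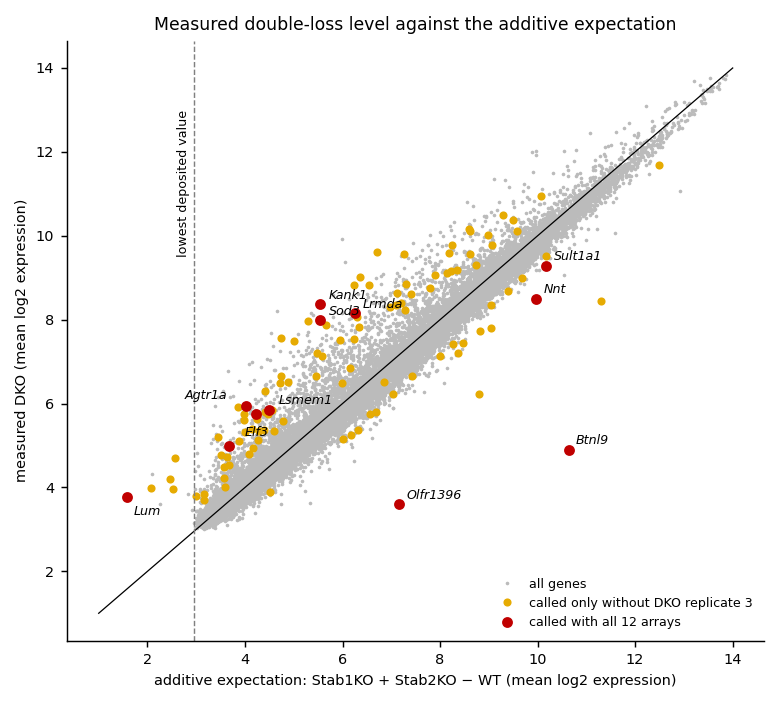
Mean DKO level against the additive expectation for 24011 genes, both in log2 units, with the line of equality. Red dots are the genes called with all 12 arrays, yellow dots those called only without DKO replicate 3, and the dashed line is the lowest deposited value (2.94). Most genes lie along the line, Btnl9 and Olfr1396 lie far under it, and Lum is left of the dashed line.

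The interaction draws on both effects of Stab1 loss. With Stab2 present, Stab1 loss gave 74 called genes (0.308%), 7 higher (0.0292%) and 67 lower (0.279%). Without Stab2 it gave 822 (3.42%), 313 higher (1.3%) and 509 lower (2.12%). These counts are not a test of the difference between backgrounds. In all, 804 genes were called without Stab2 and not with it, and the interaction test called 7 of those 804. The count of 822 was 81 without Stab2KO replicate 1, 45 without replicate 2 and 854 without replicate 3. It was 513, 433 and 423 without WT replicates 1, 2 and 3, and 366 without DKO replicate 1. The count of 74 was 47 without Stab1KO replicate 2 and 46 without replicate 3.

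Read from the other receptor, Stab2 loss gave 71 called genes with Stab1 present (0.296%), 20 higher (0.0833%) and 51 lower (0.212%). Without Stab1 it gave 227 (0.945%), 131 higher (0.546%) and 96 lower (0.4%). Of the 12 genes called for the interaction, 5 were called for Stab1 loss with Stab2 present and 8 for Stab1 loss without it. The contrasts share arrays with the interaction. The count of 71 was 37 and 42 without WT replicates 2 and 3, and 47 and 33 without Stab2KO replicates 1 and 2. The count of 227 was 22 and 28 without Stab1KO replicates 2 and 3, 123 without Stab2KO replicate 1 or 2, 112 without WT replicate 3, 115 without DKO replicate 1 and 357 without DKO replicate 3.

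Low signal limits what an interaction can show. A gene that falls in both single knockouts may have an expectation that no array can report. In 9 genes the expectation was under the lowest deposited value, 2.94, and all 9 interactions were positive by construction. They are Lum, Hhip, Postn, Nr1h5, Bmp10, Fam171b, Bmp5, Bco1 and Cpb1, named after their values were seen. Lum alone was called with 12 arrays. Leaving out DKO replicate 3, 5 were called: Lum, Hhip, Bmp10, Fam171b and Bmp5.

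Bmp5 and Bmp10, ligands of the bone morphogenetic protein family, show the pattern. Bmp10 read 6.99, 7.21 and 6.31 in WT, 4.41, 4.27 and 4.25 in Stab1KO, 4.92, 5.24 and 4.81 in Stab2KO, and 4.34, 4.17 and 4.11 in DKO. DKO overlapped Stab1KO, and WT was above all other arrays. Its expectation was 2.46, with an interaction of 1.74 ± 0.28 (limma adjusted p = 0.0563) and 1.79 without DKO replicate 3 (adjusted p = 0.0413). Bmp5 read 8.07, 8.90 and 8.21 in WT, 5.31, 4.81 and 5.10 in Stab1KO, 5.86, 6.25 and 5.53 in Stab2KO, and 4.81, 4.57 and 4.70 in DKO. Its expectation was 2.56, and the interaction was 2.14 ± 0.33 (adjusted p = 0.0536) and 2.14 ± 0.36 without that pool (adjusted p = 0.0383).

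Hhip, an inhibitor of hedgehog ligands, averaged 6.51 ± 0.33 in WT (SD, n = 3), 4.14 ± 0.22 in Stab1KO, 4.45 ± 0.40 in Stab2KO and 3.98 ± 0.04 in DKO, with an expectation of 2.08. Postn, the matrix protein periostin and a known stabilin ligand, read 6.15, 7.30 and 6.43 in WT, 4.28, 4.27 and 3.91 in Stab1KO, 4.88, 4.61 and 4.18 in Stab2KO, and 4.27, 4.08 and 4.64 in DKO. The knockout groups of Postn overlapped and none reached WT. The interaction of Postn was 2.24 ± 0.40 (limma adjusted p = 0.0734) and 2.09 without DKO replicate 3 (adjusted p = 0.0615). Lum, Hhip, Postn and Bmp5 are also members of the stellate list.

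**Figure D4:**
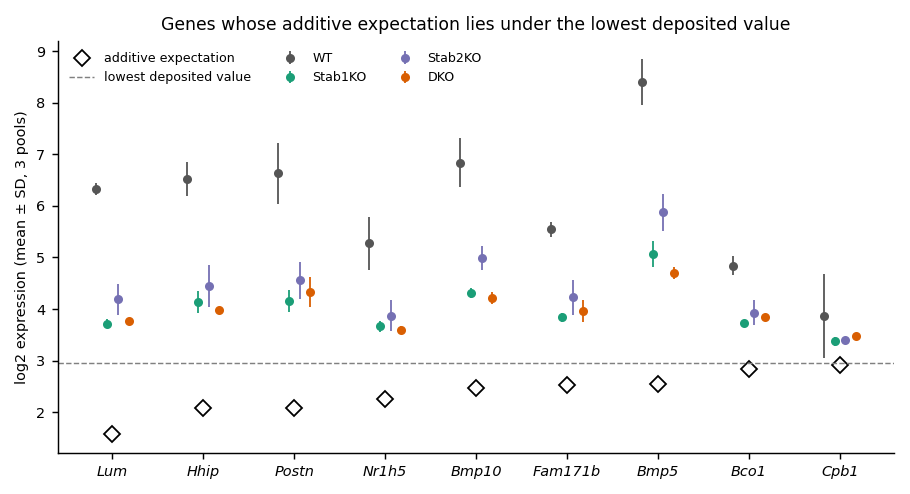
Group means with SD (3 pools) in log2 units for the 9 genes whose additive expectation (open diamond) lies under the lowest deposited value (dashed line, 2.94). WT is the highest group for each gene, the knockout groups sit between 3.37 and 5.88, and the expectations run from 1.58 for Lum to 2.91 for Cpb1.

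A higher yardstick takes in more genes. Stab1 in the 6 arrays lacking it averaged 5.27, and 12382 genes (51.6%) had an expectation under that level, of which 398 had a WT mean above it. Of the 8 genes called above expectation, 5 had an expectation under 5.27, and none of the 4 called below did. Among those 5, Lum and Agtr1a fell from WT means of 6.33 and 7.50. Elf3 and Lsmem1 were already under 5.27 in WT, at means of 4.03 and 4.74, and rose in DKO. When every value under 5.27 was raised to it before the fit, 10 genes were called, 5 of them among the 12: Kank1, Lum, Lsmem1, Btnl9 and Sult1a1. The interaction of Lum was then 1.06 and that of Lsmem1 0.58. Sod3, Agtr1a, Lrmda and Nnt, whose values hardly changed, had adjusted p from 0.0541 to 0.0696 in that fit. With the level of Stab2 in the arrays lacking it, 6.73, the fit called 12 genes, 4 of them among the 12. Lum, Elf3 and Lsmem1 were at or under 6.73 in all arrays and had an interaction of 0 there. Each probe set has its own background, so that these levels are yardsticks and not detection limits.

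Gene lists were described by their counts and medians, beside 41.6% of all genes above 0 and a median of -0.04. With all 12 arrays the hepatic stellate cell list had the highest median apart from neutrophil genes, and without DKO replicate 3 the bile duct list stood level with it at 1.40. Of 23 measured members, 22 were above 0, with a median of 1.39 (1.40 without DKO replicate 3), and 1, Lum, was called. Leaving out DKO replicate 3, 6 were called: Lum, Colec11, Bmp5, Pdgfrb, Hhip and Ecm1. Over all genes 0.466% were called in that fit. The expectations of Lum, Bmp5 and Hhip lay under the lowest deposited value, 2.94, so that their interactions were above 0 by construction. The list's median difference from WT was -1.98 in Stab1KO, -1.36 in Stab2KO and -1.77 in DKO. In the list mean DKO overlapped Stab1KO, and every DKO pool lay below every Stab2KO pool. In 14 of the 23 the expectation was under 5.27.

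Colec11, a soluble collectin, gives a stellate member well above its low range in WT. It read 8.57, 9.13 and 8.62 in WT, 6.27, 6.21 and 6.05 in Stab1KO, 7.09, 6.88 and 6.58 in Stab2KO, and 5.81, 5.54 and 5.56 in DKO. The 4 genotypes did not overlap, and DKO was lowest. Its expectation was 4.25 and its interaction 1.39 ± 0.24 (limma adjusted p = 0.0715, and 0.0493 without DKO replicate 3 at 1.43). Dcn, the matrix proteoglycan decorin, read 11.87, 12.23 and 11.92 in WT, 10.16, 9.47 and 9.82 in Stab1KO, 10.56, 10.70 and 10.10 in Stab2KO, and 9.84, 9.48 and 9.66 in DKO. The interaction of Dcn was 1.40 ± 0.28 (limma adjusted p = 0.102, and 0.0822 without that pool), and its lowest value was 9.47. Both were chosen after their values were seen.

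Rgs5, a regulator of G-protein signalling found in pericytes, had the largest interaction of the stellate list. It read 10.52, 10.87 and 10.63 in WT, 8.94, 8.20 and 8.51 in Stab1KO, 9.03, 8.61 and 10.36 in Stab2KO, and 9.97, 8.81 and 9.77 in DKO. WT was above all other arrays, and the knockout groups overlapped. The interaction was 2.31 ± 0.59 and did not pass (limma adjusted p = 0.152, and 0.161 without DKO replicate 3).

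Immediate early genes, transcription factors and regulators that cells switch on within minutes of a stimulus, all lay above expectation: 26 of 26 measured, with a median of 0.89 (0.98 without DKO replicate 3). None was called with 12 arrays, and 18 had an unadjusted p under 0.05 by limma, which 12.5% of all genes had. Without that pool 1 was called, Nr4a2. The mean of the list relative to the 12 arrays was 0.54 to 0.90 in DKO, -0.42 to 0.34 in Stab2KO, -0.47 to 0.01 in WT and -0.56 to -0.28 in Stab1KO. The highest array outside DKO was Stab2KO replicate 3, at 0.34.

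Nr4a3, a nuclear receptor, had the largest value of that list. It read 5.52, 6.42 and 6.46 in WT, 5.69, 6.16 and 6.22 in Stab1KO, 5.61, 5.90 and 7.23 in Stab2KO, and 7.78, 8.48 and 9.25 in DKO. DKO lay above all other arrays. The interaction was 2.37 ± 0.65 and did not pass (limma adjusted p = 0.161, and 0.176 without DKO replicate 3). Its paralogue Nr4a2 read 7.96, 7.94 and 7.69 in WT, 7.68, 7.64 and 7.39 in Stab1KO, 7.44, 7.60 and 8.04 in Stab2KO, and 8.65, 9.17 and 8.02 in DKO. The interaction of Nr4a2 was 1.22 ± 0.35 with all arrays (adjusted p = 0.19) and 1.52 ± 0.26 without replicate 3 (adjusted p = 0.0466).

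Egr2, a zinc finger factor of the same list, read 5.74, 6.30 and 6.35 in WT, 5.95, 5.90 and 5.66 in Stab1KO, 6.16, 5.92 and 7.25 in Stab2KO, and 7.93, 8.77 and 7.70 in DKO. Its interaction was 1.98 ± 0.50 (limma adjusted p = 0.14, and 0.0911 without DKO replicate 3). Fos, a partner in the AP-1 dimer, read 12.12, 12.41 and 12.60 in WT, 12.39, 11.87 and 12.25 in Stab1KO, 12.29, 12.26 and 12.76 in Stab2KO, and 13.15, 13.10 and 13.04 in DKO. DKO was above all other arrays for both genes. The interaction of Fos was 0.87 ± 0.24 (adjusted p = 0.17, and 0.164 without that pool).

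Interferon-stimulated genes had a median interaction of 0.50 (0.64 without DKO replicate 3), and 20 of 22 were above 0. None was called with 12 arrays and 6 had an unadjusted p under 0.05 by limma, beside 12.5% of all genes. The called member without replicate 3 was Mx2, the transcribed pseudogene described above. Oas2, an antiviral synthetase, had the largest value with all arrays. It read 6.51, 7.96 and 6.63 in WT, 7.0, 6.69 and 6.87 in Stab1KO, 5.84, 6.15 and 6.51 in Stab2KO, and 7.48, 8.02 and 9.0 in DKO. WT replicate 2 overlapped DKO, and the interaction was 2.18 ± 0.59 (adjusted p = 0.161, and 0.158 without DKO replicate 3).

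Promoters of the 2 last lists are shown as examples of the elements by which such genes are known to be switched on. Of 22 immediate early genes with a RefSeq window, 4 held the cAMP response element TGACGTCA and 2 held a CArG box, the core of the serum response element. The shares of all 18112 genes with windows were 2.57% and 1.67%. Of 18 interferon-stimulated genes with a window, 13 (72.2%) held the interferon-stimulated response element, against 3.89% of all. Both strands were searched, and matches may overlap. Of the 12 genes called for the interaction, 8 had a window and 0 of those windows held any of the 3 motifs. The Dusp1 window (chr17:26508423-26508722) and the Isg15 window (chr4:156200769-156201068), both minus strand of GRCm38.p6, carry their matches in capitals. A match describes letters in the window and is no shown site.
Dusp1: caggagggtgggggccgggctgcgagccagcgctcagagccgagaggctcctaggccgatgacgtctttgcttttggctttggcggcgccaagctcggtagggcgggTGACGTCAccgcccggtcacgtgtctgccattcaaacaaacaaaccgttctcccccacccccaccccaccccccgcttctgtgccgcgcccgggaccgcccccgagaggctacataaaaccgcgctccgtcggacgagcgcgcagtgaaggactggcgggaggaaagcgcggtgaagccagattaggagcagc
Isg15: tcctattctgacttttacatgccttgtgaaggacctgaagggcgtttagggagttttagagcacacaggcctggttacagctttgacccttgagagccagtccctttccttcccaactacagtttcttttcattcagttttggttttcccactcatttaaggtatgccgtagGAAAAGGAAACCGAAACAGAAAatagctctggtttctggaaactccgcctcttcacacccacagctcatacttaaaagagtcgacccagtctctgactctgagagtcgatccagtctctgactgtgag

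Dusp1, a phosphatase that shuts off MAP kinases, had an interaction of 0.49 ± 0.16 (limma adjusted p = 0.243, and 0.209 without DKO replicate 3). It read 13.21, 13.44 and 13.50 in WT, 13.28, 12.98 and 13.26 in Stab1KO, 13.34, 13.31 and 13.59 in Stab2KO, and 13.67, 13.79 and 13.63 in DKO. DKO was above every other array by a small margin. Isg15, a ubiquitin-like protein, read 7.40, 7.67 and 7.08 in DKO and 7.44 in Stab2KO replicate 3, with 6.40 to 6.68 in the other 8 arrays. Its interaction was 0.50 ± 0.32 (adjusted p = 0.576, and 0.413 without that pool).

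Lists of other cell types were mixed, with bile duct, Kupffer cell and neutrophil medians well above 0. Bile duct genes had a median of 1.21 (1.40 without DKO replicate 3) with 6 of 7 above 0. Sox9, the transcription factor of bile duct cells, read 7.13, 6.37 and 7.22 in WT, 7.0, 5.91 and 6.99 in Stab1KO, 6.40, 6.82 and 7.15 in Stab2KO, and 8.57, 8.29 and 8.74 in DKO. DKO lay above all other arrays, with an interaction of 2.01 ± 0.45 (limma adjusted p = 0.128, and 0.119 without that pool). Kupffer cell genes had a median of 1.03 (1.26 without that pool), 15 of 16 above 0 and none called. Their list mean ran from -0.59 to 1.23 within WT alone, and it was -0.98 to -0.61 in Stab2KO, against -0.29 to 0.67 in DKO.

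Cd68, a macrophage lysosomal protein, had the largest Kupffer list value. It read 8.52, 10.07 and 9.53 in WT, 8.99, 8.82 and 9.63 in Stab1KO, 8.06, 8.32 and 9.15 in Stab2KO, and 9.96, 10.64 and 10.35 in DKO. WT overlapped every other group, and the interaction was 2.04 ± 0.56 (limma adjusted p = 0.168, and 0.175 without DKO replicate 3). The neutrophil list depended on one array. Its median was 1.73 with all arrays and 0.32 without DKO replicate 3. Ngp, a neutrophil granule protein, read 5.08, 6.38 and 13.15 in DKO and 4.32 to 5.31 elsewhere, with an interaction of 3.55 ± 2.20 (adjusted p = 0.564) that became 1.07 ± 0.52 without that pool (adjusted p = 0.416).

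The other blood, liver and vessel wall lists lay nearer 0. Values without DKO replicate 3 are in parentheses. Smooth muscle genes had a median of 0.15 (0.17) with 8 (8) of 10 above 0. Monocyte and dendritic cell genes had 0.07 (-0.0003) with 8 (6) of 12. B and plasma cell genes had a median of 0.01 (-0.19) with 7 (4) of 12 above 0. Erythroid and platelet genes had 0.01 (0.04) with 5 (6) of 10. Natural killer and T cell genes lay at -0.08 (0.05) with 5 (9) of 16 above 0. Hepatocyte genes had a median of -0.07 with 7 of 17 above 0, which turned to 0.42 with 12 of 17 above 0 without DKO replicate 3. No member of these 6 lists was called with or without that pool.

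The LSEC and pan-endothelial lists lay below expectation by small amounts. The lists of other endothelial beds were mixed and share members with them. The LSEC list had a median of -0.18 (-0.10 without DKO replicate 3) with 4 of 26 above 0. Pan-endothelial genes had -0.24 (-0.11) with 1 of 15 above 0. Large-vessel endothelial genes had a median of -0.07 (-0.06) with 7 of 17 above 0, a share like that of all genes. Lymphatic endothelial genes had a median of 0.36 (0.30) with 5 of 9 above 0, and ran from -0.30 to 1.73. Lyve1 and Flt4 are on both the LSEC and the lymphatic list. The lymphatic median of 0.36 is the value of Lyve1, the highest member of the LSEC list. No member of these 4 lists was called, and of the LSEC and pan-endothelial genes 6 of 26 and 3 of 15 had an unadjusted p under 0.05 by limma, beside 12.5% of all genes. Wnt2, a signal that LSECs send to hepatocytes, had the largest departure of the LSEC list. It read 10.81, 10.84 and 10.86 in WT, 10.78, 11.07 and 10.96 in Stab1KO, 11.09, 11.06 and 10.67 in Stab2KO, and 10.29, 10.37 and 9.83 in DKO. DKO was below all other arrays, with an interaction of -0.88 ± 0.22 (adjusted p = 0.139), or -0.71 ± 0.17 without that pool (adjusted p = 0.111). Cdh5, the endothelial junction cadherin, had an interaction of 0.01 ± 0.10 with all arrays. Reln, the secreted glycoprotein reelin of the lymphatic list, read 8.37, 9.06 and 8.51 in WT, 6.54, 5.24 and 6.29 in Stab1KO, 6.92, 6.78 and 6.47 in Stab2KO, and 6.25, 5.52 and 5.73 in DKO. WT lay above all other arrays, and the interaction of Reln was 1.73 ± 0.46 (adjusted p = 0.154, and 0.144 without that pool). Reln is also on the stellate and stabilin ligand lists. Its additive expectation, 4.10, lay under 5.27, the mean of Stab1 in the arrays lacking it. The part of stellate transcripts in the Reln value was not tested.

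Most genes of the uptake machinery in which the stabilins work lay below expectation by small amounts, and scavenger receptors lay around it. Lysosome genes had a median of -0.23 (-0.17 without DKO replicate 3) with 4 of 24 above 0. Endocytosis machinery had -0.17 (-0.15) with 2 of 23 above 0, and scavenger and endocytic receptors -0.0026 (0.06) with 13 of 27. No member of these 3 lists was called with or without DKO replicate 3. With all arrays 7, 7 and 8 of their members had an unadjusted p under 0.05 by limma, beside 12.5% of all genes. Ap2s1, a subunit of the clathrin adaptor at the cell surface, read 10.30, 10.29 and 10.22 in WT, 10.14, 10.28 and 10.41 in Stab1KO, 10.30, 10.36 and 10.32 in Stab2KO, and 9.73, 9.89 and 9.59 in DKO. Its DKO pools lay below all other arrays, with an interaction of -0.59 ± 0.13 (adjusted p = 0.118, and 0.102 without that pool).

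Gla, the lysosomal alpha-galactosidase, had the largest value of the lysosome list. It read 8.47, 8.97 and 8.71 in WT, 8.54, 8.85 and 8.69 in Stab1KO, 8.44, 8.47 and 8.97 in Stab2KO, and 9.28, 9.61 and 9.65 in DKO. DKO was above every other array, and the interaction was 0.91 ± 0.25 (limma adjusted p = 0.161, and 0.179 without DKO replicate 3). Olr1, a receptor for oxidized lipoproteins, rested on one pool: it read 5.16, 5.41 and 8.84 in DKO, with 2.04 ± 1.06 (adjusted p = 0.482) and 0.85 ± 0.30 without replicate 3 (adjusted p = 0.233).

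**Figure D5:**
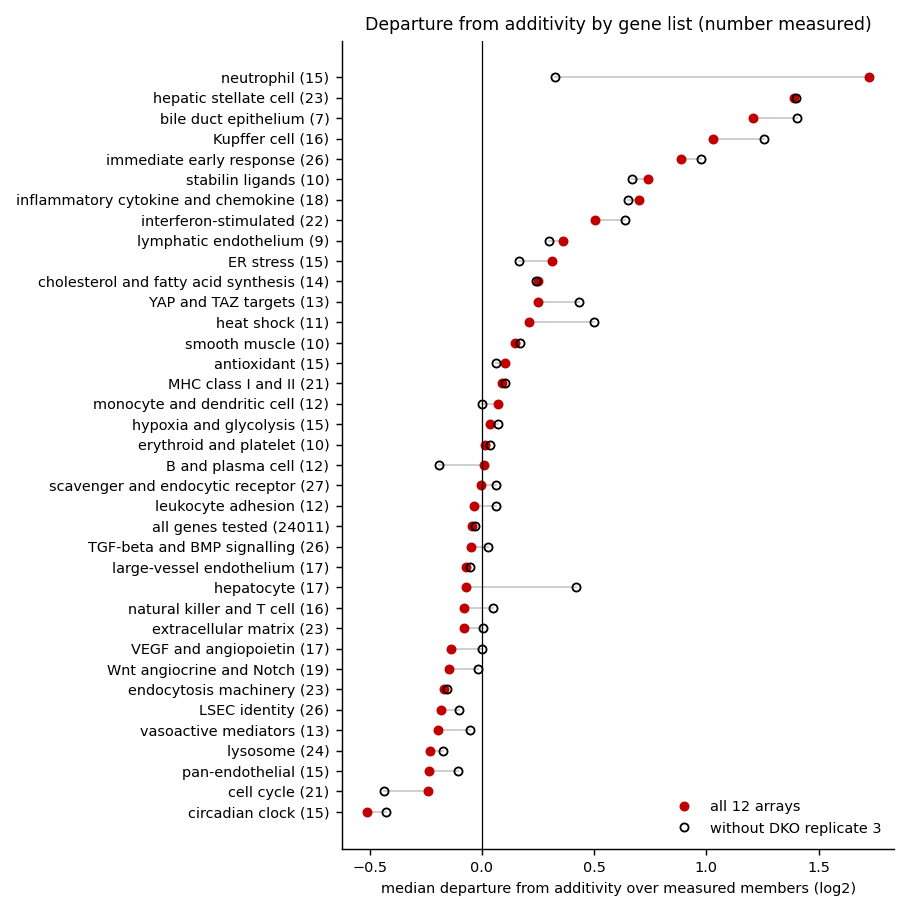
Median interaction in log2 units over the measured members of each gene list, with the number measured in parentheses. Filled dots use all 12 arrays and open dots leave out DKO replicate 3. The neutrophil list moves from 1.73 to 0.32, the stellate list stays at 1.39 and 1.40, and all genes together lie at -0.04 and -0.03.

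Among the remaining lists, Agtr1a, Sod3 and Nnt were the members called with 12 arrays. The targets of YAP and TAZ had a median of 0.25 (0.43 without DKO replicate 3) with 7 of 13 above 0. Their extremes went opposite ways. Ankrd1, a known target of YAP and TAZ, read 6.04, 6.11 and 7.17 in WT, 6.10, 5.35 and 5.90 in Stab1KO, 6.05, 6.29 and 7.07 in Stab2KO, and 8.76, 8.24 and 8.77 in DKO. DKO lay above all other arrays, and the interaction was 2.78 ± 0.49 (limma adjusted p = 0.0734, and 0.0615 without DKO replicate 3). Ccn2, another such target, read 9.98, 8.96 and 9.32 in WT, 10.41, 10.54 and 10.26 in Stab1KO, 9.63, 9.74 and 10.65 in Stab2KO, and 10.46, 9.92 and 9.34 in DKO. Stab1KO lay above WT and DKO overlapped every other group, with an interaction of -1.08 ± 0.49 (adjusted p = 0.4, and 0.516 without that pool).

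The VEGF and angiopoietin list had a median of -0.14 with 7 of 17 above 0. Without DKO replicate 3 the median was 0.0002, with 9 above 0. Vegfa was the highest member of the list and Vegfb the lowest. Vegfa, the endothelial growth factor, read 10.06, 9.87 and 10.09 in DKO and 8.21 to 9.21 in the other 9 arrays. Its interaction was 1.39 ± 0.32 (limma adjusted p = 0.13, and 0.128 without DKO replicate 3). Vegfb read 8.74, 8.90 and 8.72 in DKO and 8.93 to 9.37 elsewhere, with an interaction of -0.61 ± 0.14 (adjusted p = 0.129, and 0.128 without that pool). Matrix genes had a median of -0.08 with 10 of 23 above 0, and 0.0026 with 12 above 0 without that pool. Fn1, the matrix protein fibronectin, read 8.56, 8.74 and 8.79 in WT, 8.75, 7.42 and 8.55 in Stab1KO, 7.52, 7.66 and 7.95 in Stab2KO, and 9.39, 8.88 and 9.41 in DKO. Its interaction was 1.97 ± 0.42 (adjusted p = 0.112, and 0.102 without that pool). Nid2, a basement membrane protein, was the lowest of that list. It read 6.70, 6.81 and 6.58 in DKO and 7.10 to 7.65 elsewhere, with an interaction of -0.83 ± 0.14 (adjusted p = 0.0734, and 0.0609 without that pool).

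Tnf, the inflammatory cytokine, read 8.38, 9.27 and 10.79 in DKO and 6.86 to 8.56 elsewhere, so that DKO replicate 1 overlapped Stab2KO and the other 2 pools were higher. It had an interaction of 2.14 ± 0.80 (limma adjusted p = 0.303), and 1.48 ± 0.62 without DKO replicate 3 (adjusted p = 0.329). The list of inflammatory cytokines and chemokines had a median of 0.70 (0.65 without that pool) with 16 of 18 above 0. Arntl, the core clock activator, read 9.45, 8.64 and 8.57 in DKO and 6.47 to 7.89 elsewhere, with an interaction of 1.82 ± 0.43 (adjusted p = 0.134, and 0.0904 without that pool). Dbp, a clock output factor with the lowest value of the list, read 9.33, 10.90 and 9.95 in DKO and 11.04 to 11.63 elsewhere, with -1.52 ± 0.42 (adjusted p = 0.172, and 0.186 without that pool). The clock list as a whole had a median of -0.51 (-0.43 without that pool), with 4 of 15 above 0.

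The other lists are given by their medians, with the median without DKO replicate 3 in parentheses and counts from all 12 arrays. The stabilin ligands lay at 0.74 (0.67) with 8 of 10 above 0. Reln, Postn, Col1a1 and Col3a1 are on both this list and the stellate list. In 5 of the 10 ligand genes the expectation was under 5.27. The ligand list's median difference from WT was -0.64 in Stab1KO and -0.51 in Stab2KO. ER stress lay at 0.31 (0.16) with 10 of 15 above 0. Cholesterol and fatty acid synthesis had 0.25 (0.24) with 9 of 14, and heat shock 0.21 (0.50) with 9 of 11. Antioxidant genes lay at 0.10 (0.06) with 8 of 15 above 0, and hypoxia and glycolysis at 0.04 (0.07) with 8 of 15. Cell cycle lay at -0.24 (-0.44) with 2 of 21 above 0. Vasoactive mediators had -0.19 (-0.05) with 3 of 13, and Wnt and Notch signals -0.15 (-0.02) with 5 of 19. TGF-beta and BMP signalling had -0.05 (0.03) with 11 of 26 above 0, and leukocyte adhesion -0.03 (0.06) with 6 of 12.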

How the data were processed

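The arrays measured RNA of pooled LSECs from 4 genotypes with 3 arrays each. The deposited values are log2 expression summaries made with RMA, per the submitters' processing notes, with version, annotation and build not given in the sources used here. RMA subtracts background and equalizes the arrays, and sorted values differed by at most 0.00187 between arrays, so that a shift common to most genes cannot be seen. The number of arrays limits the precision, and there is no read depth.

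Of 24973 rows, 24015 carried 1 gene symbol and 958 none. The lower of duplicate rows was dropped (4), which left 24011 genes, 23918 of them in the RefSeq table for GRCm38.p6. limma 3.58.1 in R 4.3.3 fitted 4 group means across all genes, with eBayes and two-sided tests, and Benjamini-Hochberg adjustment over all genes within each contrast. The code was tested on simulated data.

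Genes chosen for naming by rule were Stab1, Stab2 and the largest called departures in each direction. For each of 36 lists, up to 3 called members were added, or otherwise the 1 with the largest interaction. Not every list member chosen this way is described above. Placeholder models and small RNAs entered the counts without being named. Genes called only without DKO replicate 3, and any others named, were chosen after their values were seen. The comparison, its members and all lists were chosen with earlier results of these data known. Alternatives were a replicate block, a filter at the 40th percentile of gene means, trend and robust options, array weights, renewed normalization, every row tested, 2 floors and each array left out. A floor at the lowest deposited value was added after seeing the data.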

Additional observations from a re-analysis of the deposited data

Results flagged for a closer look

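For 12 genes the difference between arrays with and without Stab1 depended on the Stab2 genotype by the interaction test of limma. Other differences between the mice of these genotypes cannot be told apart from loss of the receptors. The interactions above 0 were 2.84 for Kank1, 2.45 for Sod3, 2.20 for Lum, 1.90 for Agtr1a, 1.89 for Lrmda, 1.52 for Elf3, 1.35 for Lsmem1 and 1.32 for the placeholder model Gm13748. The interactions below 0 were -0.891 for Sult1a1, -1.47 for Nnt, -3.55 for Olfr1396 and -5.74 for Btnl9. Of these, Kank1, Lum and Btnl9 were called whichever single array was left out. The additive expectation of Lum, 1.58, lay under the lowest deposited value, 2.94, so that its interaction was above 0 by construction. Groups of 3 arrays are too small for a test of outlying samples.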

How the results depend on the processing

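The interaction called 12 genes, 8 above and 4 below the expectation. With replicate number as a block the numbers were 6, 5 and 1, and all 6 were among the 12. With the low-signal filter they were 28, 17 and 11, with trend and robust options 35, 28 and 7, and with array weights 199, 131 and 68, DKO replicate 3 having the lowest weight (0.254). Renewed normalization and testing every row called the same 12. Leaving out 1 array gave 3 to 112 in all, 2 to 86 above and 1 to 26 below. Array weights gave 1789 genes for Stab1 loss without Stab2 (822 in the equal-weight model), 148 for Stab2 loss with Stab1 (71) and 466 without Stab1 (227). Raising values under the Stab1 level gave 41 for Stab1 loss with Stab2 (74), 452 without Stab2 and 113 for Stab2 loss without Stab1. Raising values under the Stab2 level gave 22, 244, 25 and 47 for Stab1 loss with and without Stab2 and Stab2 loss with and without Stab1. Leaving out 1 array gave 46 to 81, 45 to 854, 33 to 92 and 22 to 357 in the same order. Genes called with an expectation under the floor numbered 5 at the Stab1 level, 8 at the Stab2 level, 2 at the 25th percentile of gene means and 1 at the lowest deposited value. With a shape threshold of 0.3 the called genes held 3 double-loss only, 5 less than additive and 0 single-loss only, and with a threshold of 1 they held 3 of each. The cause of these shifts was not tested, other than fewer arrays or genes in a fit. No named gene reversed a called direction in any alternative.

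The replicate numbers are not said to mark shared animals or days. Over 18 same-numbered pairs the deviations correlated from -0.0636 to 0.291, with 4 pairs above 0.1. Most same-numbered pairs lay above 0, and most other pairs lay below it. The highest correlations of any pair, 0.291, 0.24 and 0.231, were between same-numbered arrays. Not every array correlated best with its own number (Stab1KO replicate 2 reached 0.213 with Stab2KO replicate 1). The numbers were not treated as pairs in the main model. With the block, Sod3, Agtr1a, Lsmem1, Olfr1396, Nnt and Sult1a1 had adjusted p from 0.0581 to 0.0774. The block gave 58, 717, 68 and 270 genes for Stab1 loss with and without Stab2 and Stab2 loss with and without Stab1. Values near the bottom of the scale have little range left to fall, and 3 pools per genotype bound what can be called.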
